A study of Mus musculus with 4 samples.

Results

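The genes described here are 10 members of the chemokine system: the receptor genes Cxcr3, Cxcr4 and Cxcr6, and the ligand genes Cxcl9, Cxcl10, Ccl3, Ccl4, Ccl5, Ccl20 and Xcl1. They were taken by symbol from a list of CXC receptors of T cells and chemokines made by T cells or myeloid cells in inflamed colon. All 10 were among the 16555 genes of the deposited table, and all 10 passed the filter on low values, which left 16490 genes to test.

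Chemokines are small secreted proteins that are named after the spacing of their first cysteines (C, CC, CXC), and they guide leukocytes through G protein-coupled receptors that signal through the Gi class of G proteins. CXCR3 is carried by Th1 cells and binds CXCL9, CXCL10 and CXCL11, which interferon gamma induces in many cell types. CXCR6 binds CXCL16 and marks effector and tissue-resident T cells, CXCR4 binds CXCL12, CCR6 binds CCL20, and XCR1, carried by cross-presenting dendritic cells, binds XCL1.

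RNA was sequenced from CD45+CD3+CD4+ T cells sorted from the colon of Rag1-/- mice, a host without its own T and B cells, 6 weeks after transfer of naive (CD4+CD25-CD45RBhi) T cells, which drives colitis in this host. Donors were CK2αfl/fl mice (fl/fl, 2 libraries) or CK2αfl/fldLck-Cre mice (dLck-Cre, 2 libraries), in which the distal Lck promoter drives Cre in mature T cells. Both groups carried the floxed alleles of CK2α, a catalytic subunit of protein kinase CK2 that Csnk2a1 encodes. The labels give no age or sex of donors or hosts and do not say whether a library came from 1 animal or a pool, so p-values here speak only to the variation among these 4 samples, part of which may be technical. The design is meant to ask how deletion of CK2α in T cells alters the colonic CD4+ T cells of these mice.

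Whole reads recovered from the table came to between 16777017 and 22422971 per library. Csnk2a1, the targeted gene, was not reduced under the dLck-Cre label (1534 and 1597 normalized counts in fl/fl, 2118 and 2031 in dLck-Cre). Its log2 difference (dLck-Cre minus fl/fl) was 0.41 (limma, adjusted p = 0.108). Per-gene counts cannot show an exon deletion, so groups are named throughout by their labels. The defining genes of the sorted cells were abundant (Cd4 between 12615 and 18818, Cd3e between 1053 and 1790 normalized counts), and markers of cells outside the sort were present as well. Summed over 24 colonic epithelial markers, the level was 56416 and 63772 normalized counts in fl/fl and 128577 and 153701 in dLck-Cre, and 21 of the 24 rose. Summed over 28 monocyte, macrophage and dendritic cell markers, it was 67811 and 41845 against 123574 and 106933, and 18 of the 28 rose. Summed over 20 T cell identity genes, it was 143071 and 142232 against 98974 and 92062, and 7 of the 20 fell. No gene of these 3 lists was at 0 in any library. As 1 marker of each, Epcam had 3178 and 3495 against 7325 and 9441 normalized counts, the macrophage lysozyme gene Lyz2 had 14917 and 4488 against 22279 and 13354 (limma, adjusted p = 0.245), and Cd3e had 1573.5 and 1790 against 1053 and 1152.5. Of other cell types, 1 of 11 neutrophil, 1 of 9 CD8 T and NK, 1 of 3 B and plasma and 0 of 14 stromal and endothelial markers rose, and none fell. In these counts a gene rose or fell where limma's adjusted p with all 4 libraries was under 0.05. Over all genes tested 5.75% rose and 1.22% fell. Few genes passed without dLck-Cre replicate 2, as given below. In bulk RNA, fewer cells of a type and less RNA per cell cannot be told apart.

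Between the groups, 4 of the 10 members differed past the threshold (limma, Benjamini-Hochberg over all genes, adjusted p under 0.05). Cxcl9 and Cxcl10 rose and Cxcr4 and Cxcr6 fell in the libraries labelled dLck-Cre, while Cxcr3, Ccl3, Ccl4, Ccl5, Ccl20 and Xcl1 did not pass. Over all genes tested 6.97% passed, 5.75% as higher and 1.22% as lower. On the recovered reads edgeR and DESeq2 also called 4 of the 10 each, beside 6.87% of all genes with edgeR (5.83% higher, 1.04% lower) and 10.7% with DESeq2 (8.17% higher, 2.55% lower). The libraries of the groups did not overlap for 5 members, the 4 that passed and Ccl20, beside 55.2% of all genes (27.7% with dLck-Cre above, 27.4% with dLck-Cre below). The median difference (log2, dLck-Cre minus fl/fl) of the 10 members was -0.20 and that of all genes -0.02. When values were scaled to the T cell identity genes, the median of all genes became 0.49 and the calls over all genes changed from 948 higher and 202 lower to 4606 higher and 49 lower, and Cxcl9, Cxcl10 and Ccl20 then passed as higher and no member as lower. Without dLck-Cre replicate 2, 17 of the 16490 genes and none of the 10 members passed limma's test (4 members at an unadjusted p under 0.05).

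**Figure D1:**
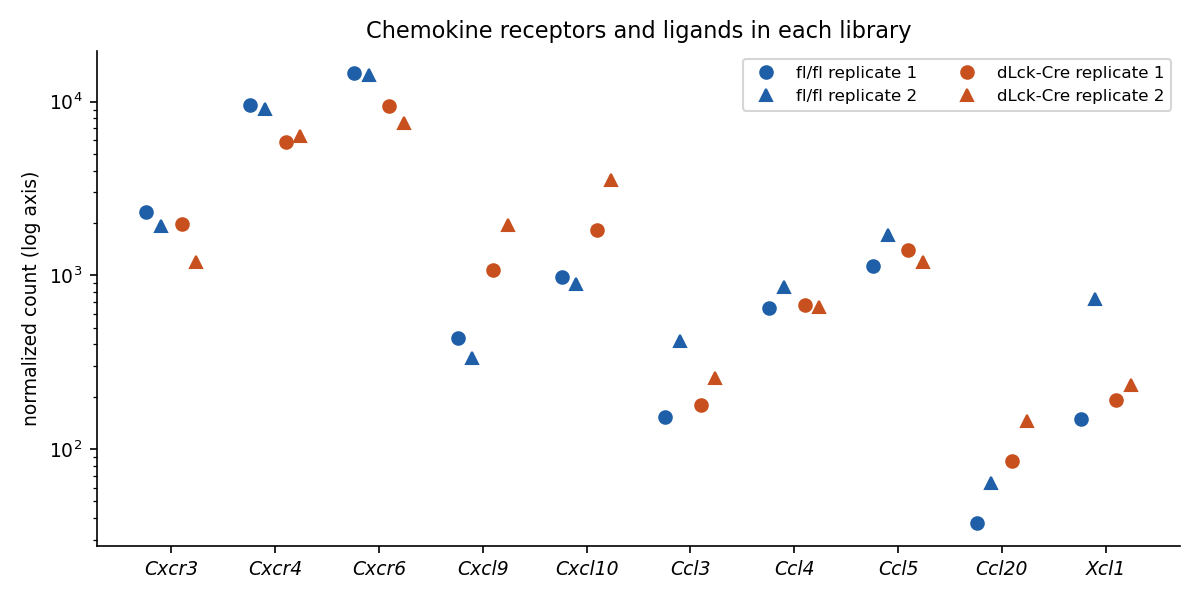
Normalized counts (log axis) of the 10 members in each library, with fl/fl in blue and dLck-Cre in orange, circles for replicate 1 and triangles for replicate 2. Both dLck-Cre libraries lie above both fl/fl libraries for Cxcl9, Cxcl10 and Ccl20 and below them for Cxcr4 and Cxcr6, while fl/fl replicate 2 is the highest library for Ccl3, Ccl4, Ccl5 and Xcl1.

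The promoters of the 4 members that passed are shown with their matches to the short motifs described below. All but the NRF1 site are motifs through which interferon and inflammatory signals are known to act. The windows run from 250 bases before to 50 after the annotated start, on the gene's strand, 5′ to 3′, from RefSeq (GRCm38.p6), and capitals mark motif matches on either strand.
Cxcl9, chr5:92328030-92328329, minus strand: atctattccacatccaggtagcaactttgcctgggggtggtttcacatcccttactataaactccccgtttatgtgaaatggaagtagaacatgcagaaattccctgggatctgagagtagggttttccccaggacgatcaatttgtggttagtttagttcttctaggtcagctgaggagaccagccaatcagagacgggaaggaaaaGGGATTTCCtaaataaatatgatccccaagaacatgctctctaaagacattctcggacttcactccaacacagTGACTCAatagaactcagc
Cxcl10, chr5:92348840-92349139, minus strand: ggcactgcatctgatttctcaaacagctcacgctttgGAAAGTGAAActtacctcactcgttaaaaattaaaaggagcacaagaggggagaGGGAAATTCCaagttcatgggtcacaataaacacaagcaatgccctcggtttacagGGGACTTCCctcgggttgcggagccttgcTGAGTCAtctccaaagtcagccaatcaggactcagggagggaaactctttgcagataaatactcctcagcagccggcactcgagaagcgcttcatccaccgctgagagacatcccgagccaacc
Cxcr4, chr1:128592250-128592549, minus strand: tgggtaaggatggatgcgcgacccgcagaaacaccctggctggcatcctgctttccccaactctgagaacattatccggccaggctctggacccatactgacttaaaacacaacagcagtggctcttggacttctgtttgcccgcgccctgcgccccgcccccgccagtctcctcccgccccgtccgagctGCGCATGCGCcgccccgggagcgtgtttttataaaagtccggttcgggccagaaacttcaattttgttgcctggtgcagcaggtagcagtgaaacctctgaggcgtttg
Cxcr6, chr9:123806227-123806526, plus strand: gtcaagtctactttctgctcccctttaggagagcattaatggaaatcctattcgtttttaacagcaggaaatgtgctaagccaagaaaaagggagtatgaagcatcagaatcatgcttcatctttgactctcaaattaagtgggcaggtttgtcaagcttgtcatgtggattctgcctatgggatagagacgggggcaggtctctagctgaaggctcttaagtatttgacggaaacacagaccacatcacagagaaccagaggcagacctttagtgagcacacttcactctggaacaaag

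The motifs searched were the interferon-stimulated response element (GAAA, any 2 bases, then GAAA), 2 forms of the kappa B site bound by NF-kB (GGGANTTCC, and a form with 1 more free base in the middle), the AP-1 site (TGANTCA), the gamma-activated site (TTCNNNGAA) and the palindromic NRF1 site (GCGC, AT, then GCGC). Positions are counted from 0 at the annotated first base. The Cxcl10 window held GAAAGTGAAA at -213, GGGAAATTCC at -159, GGGACTTCC at -103 and TGAGTCA at -74, and none of these matches overlapped. The Cxcl9 window held GGGATTTCC at -42 and TGACTCA at 31, and did not hold the letters given for the response element. No window shown held the letters given for the gamma-activated site. Only these exact letters were searched, so interferon-responsive sites of other forms would be missed and may be present in these windows. The Cxcr4 window held the NRF1 site at -59, and the Cxcr6 window held none of the 6 motifs. Of 32851 promoter windows of the same length in the table, 3.44% held the response element, 1.68% and 1.47% the 9-letter and 10-letter kappa B forms, 7.81% the AP-1 site, 8.30% the gamma-activated site and 0.971% the NRF1 site. None of the windows of Cxcr3, Ccl3, Ccl20 and Xcl1 held any of the 6 motifs, which says only that these letters are not in these windows. The windows of 8 of the 10 members were available, and those of Ccl4 and Ccl5 were not used here.

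Cxcl9 encodes an interferon gamma-induced ligand of CXCR3 (chromosome 5, 92321347 to 92328079, minus strand, GRCm38). It had 435 and 335 normalized counts in fl/fl replicates 1 and 2 and 1071 and 1951 in dLck-Cre replicates 1 and 2. Both dLck-Cre libraries were higher than both fl/fl libraries, and replicate 2 was the highest of all. The means were 385 ± 71.2 and 1511 ± 622 (SD, n = 2 each), a ratio of 3.92, and the log2 difference of 1.92 ± 0.28 (SE) was the largest among the 10 members (limma, adjusted p = 0.0195). Omission of single libraries gave 1.49 to 2.35, and the lowest value, that lacking dLck-Cre replicate 2, no longer passed (adjusted p = 0.0518).

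Cxcl10, a second CXCR3 ligand gene, lies next to Cxcl9 (chromosome 5, 92346638 to 92348889, minus strand), 18559 bases away. It had 977 and 891 normalized counts in fl/fl and 1829 and 3555 in dLck-Cre, again without overlap and again with replicate 2 the highest. The means were 934 ± 60.4 and 2692 ± 1220.3 (SD, n = 2 each), a ratio of 2.88 and a log2 difference of 1.45 ± 0.28 (limma, adjusted p = 0.0320). It was 0.97 when dLck-Cre replicate 2 was omitted (adjusted p = 0.0611), and after quantile normalization it was 1.51 (adjusted p = 0.0524). Cxcl10 and Art3, on the opposite strand, share 133 exon bases, and Art3 had at most 37.7 normalized counts in any library.

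Cxcl11, the remaining CXCR3 ligand gene of the same cluster, is annotated as a polymorphic pseudogene in GENCODE vM21. It had 33.3 and 63.0 normalized counts in fl/fl and 161 and 286.5 in dLck-Cre, without overlap, and rose by 2.20 ± 0.40 (log2, SE; limma, adjusted p = 0.0271). Omitting dLck-Cre replicate 2 left 1.79 (adjusted p = 0.0967). The nearest protein-coding genes outside Cxcl9 and Cxcl10 other than Art3 did not pass: Sdad1 differed by 0.12 ± 0.15 (adjusted p = 0.685) and Nup54 by -0.09 ± 0.15 (adjusted p = 0.779).

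The ratio of Cxcl10 to Cxcl9 normalized counts was 2.24 and 2.66 in fl/fl and 1.71 and 1.82 in dLck-Cre. It was thus lower in both dLck-Cre libraries. Both ligand genes rose beside the higher myeloid and epithelial marker sums. Per 1000 normalized counts of the 28 myeloid markers, Cxcl9 stood at 6.42 and 7.999 in fl/fl and at 8.67 and 18.2 in dLck-Cre, without overlap. On the same scale Cxcl10 stood at 14.4 and 21.3 against 14.8 and 33.2, with overlap. Per 1000 normalized counts of the 24 epithelial markers, Cxcl9 stood at 7.72 and 5.25 against 8.33 and 12.7, and Cxcl10 at 17.3 and 14.0 against 14.2 and 23.1. In dLck-Cre replicate 1 these ratios were close to those of an fl/fl library, and in dLck-Cre replicate 2 they were the highest of the 4 on both scales. The part of other cells in the rise of Cxcl9 and Cxcl10 was not tested.

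Genes on the path from interferon gamma to these ligands were a list of 12, of which 4 rose and none fell (5.75% and 1.22% over all genes). They were Irf8, an interferon-induced transcription factor (1.33, log2), the guanylate-binding protein gene Gbp2 (1.12), the receptor chain gene Ifngr2 (0.82) and Irf1 (0.65, the smallest of the 4). Their adjusted p-values (limma) lay between 0.0195 and 0.0474, and the list's median was 0.59 beside -0.02 over all genes. On omission of dLck-Cre replicate 2 none of the 4 passed (adjusted p of 0.0518 for Irf8, 0.0631 for Gbp2, 0.121 for Ifngr2 and 0.133 for Irf1), and Ifngr2 and Irf1 were also lost on omission of either fl/fl library. The 28 myeloid markers, of which 18 rose, had a median of 1.12 in the same comparison, and the part of those cells in this list was not tested. Ifng itself had 7025 and 6435 normalized counts in fl/fl and 7454 and 32696 in dLck-Cre replicates 1 and 2. Its log2 difference of 1.22 ± 0.57 (SE) did not pass (limma, adjusted p = 0.244). The library with the highest Cxcl9 and Cxcl10, dLck-Cre replicate 2, also stood apart for Ifng. In dLck-Cre replicate 1, Ifng was near its fl/fl values. Both ligand genes were higher there than in fl/fl (Cxcl9 1071 against 435 and 335, Cxcl10 1829 against 977 and 891). Whether Ifng had a part in the rise of either ligand gene was not tested.

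Cxcr6 encodes the receptor for CXCL16 (chromosome 9, 123806475 to 123811760, plus strand). It had 14559 and 14286 normalized counts in fl/fl and 9488 and 7577 in dLck-Cre. The fl/fl libraries were nearly equal, and both dLck-Cre libraries were below them. The means were 14422 ± 193 and 8533 ± 1352 (SD, n = 2 each), and Cxcr6 fell by 0.77 ± 0.15 on the log2 scale (limma, adjusted p = 0.0331). The call was lost (adjusted p of 0.0652, 0.0529 and 0.0849) when fl/fl replicate 1, fl/fl replicate 2 or dLck-Cre replicate 2 was omitted, with differences between -0.93 and -0.60 over the 4 omissions. Cxcr6 lies within the span of Fyco1 on the opposite strand, with 0 shared exon bases.

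Cxcr4, the receptor gene for CXCL12 (chromosome 1, 128588199 to 128592293, minus strand), had 9615 and 9096 normalized counts in fl/fl and 5886 and 6323 in dLck-Cre. The groups did not overlap, and replicates of a group differed by at most 1.07-fold. The means were 9355 ± 367 and 6104 ± 309 (SD, n = 2 each), and Cxcr4 fell by 0.62 ± 0.13 on the log2 scale (limma, adjusted p = 0.0356). With any 1 of the 4 libraries left out the difference stayed between -0.67 and -0.56 and did not pass (adjusted p between 0.0571 and 0.129).

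Cxcr3, the Th1 receptor gene (chromosome X, 101731535 to 101734269, minus strand), had 2314 and 1927 normalized counts in fl/fl and 1961 and 1195 in dLck-Cre. The groups overlapped, since dLck-Cre replicate 1 lay between the fl/fl libraries and only replicate 2 was low. Its log2 difference was -0.46 ± 0.23, with a 95% interval from -1.01 to 0.083 (limma, adjusted p = 0.278). Omitting dLck-Cre replicate 1 gave -0.82, which passed (adjusted p = 0.0341) on the assumption that the lone dLck-Cre library varies like the others. Leaving out dLck-Cre replicate 2 gave -0.11.

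The lower levels of Cxcr6 and Cxcr4 stood beside the lower T cell identity genes, whose median difference was -0.53. Per 1000 normalized counts of the 20 T cell identity genes, Cxcr6 stood at 102 and 100.4 in fl/fl and at 95.9 and 82.3 in dLck-Cre, so that both dLck-Cre libraries were lower, by less than in the unscaled values. On the same scale Cxcr4 stood at 67.2 and 64.0 against 59.5 and 68.7, and Cxcr3 at 16.2 and 13.5 against 19.8 and 12.98, with overlap of the groups for both. In the fit scaled to these genes the differences were -0.25 for Cxcr6 (limma, adjusted p = 0.181), -0.10 for Cxcr4 (adjusted p = 0.583) and 0.051 for Cxcr3 (adjusted p = 0.866). None of the 3 passed on that scale. The part of the share of T cells in them was not tested.

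**Figure D2:**
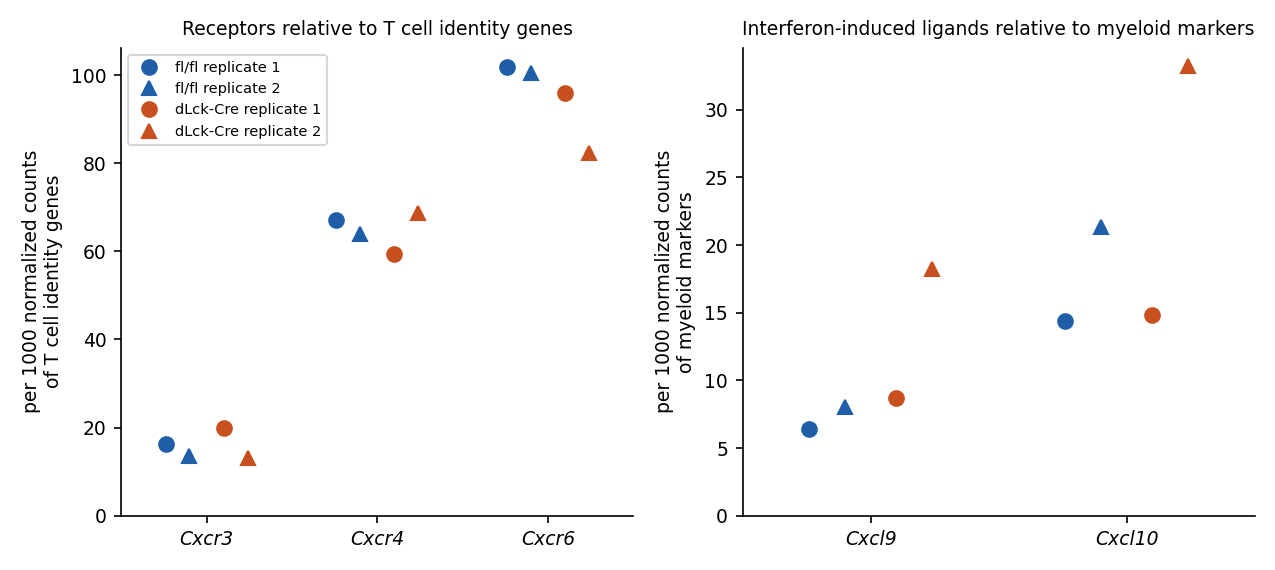
Left, Cxcr3, Cxcr4 and Cxcr6 per 1000 normalized counts of 20 T cell identity genes, and right, Cxcl9 and Cxcl10 per 1000 normalized counts of 28 myeloid markers, in each library (blue fl/fl, orange dLck-Cre, circles replicate 1, triangles replicate 2). On these scales the groups overlap for Cxcr3, Cxcr4 and Cxcl10, and do not overlap for Cxcr6 (100.4 to 102 against 82.3 to 95.9) and Cxcl9 (6.42 to 7.999 against 8.67 to 18.2).

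The CC chemokine genes Ccl3, Ccl4 and Ccl5 encode chemokines that activated T cells and myeloid cells make, and they lie together on chromosome 11 (GRCm38: Ccl3 83647844 to 83649355, minus strand; Ccl4 83662584 to 83664683, plus strand; Ccl5 83525778 to 83530518, minus strand). Ccl5 had 1129.7 and 1698 normalized counts in fl/fl and 1395 and 1192 in dLck-Cre. Ccl4 had 646 and 859 in fl/fl and 676 and 661 in dLck-Cre. Ccl3 had 154 and 418 in fl/fl and 179 and 256 in dLck-Cre. For all 3 genes both dLck-Cre libraries lay between the fl/fl libraries, of which replicate 2 was the higher. The log2 differences were -0.10 for Ccl5 (95% interval -0.59 to 0.38), -0.16 for Ccl4 (-0.57 to 0.26) and -0.24 for Ccl3 (-1.26 to 0.77), with limma's adjusted p-values between 0.646 and 0.813. After scaling to T cell identity genes all 3 differences lay above 0 (0.27 to 0.41), and below the median of 0.49 over all genes on that scale. The intervals leave room for a change of Ccl3 of more than 2-fold in the lower direction, and for smaller ones of Ccl4 and Ccl5. In RefSeq the Ccl4 gene of the same assembly begins at 83648624, inside Ccl3 on the opposite strand, so reads of the pair could be shared where the counting did not use strand, which is not given in the sources used here.

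Of the neighbours of these genes, the CC ligand gene Ccl6 rose, with 314 and 373 normalized counts in fl/fl and 740.1 and 767 in dLck-Cre (log2 difference 1.14 ± 0.17 SE, limma, adjusted p = 0.0195). Ccl9, which lies between Ccl5 and Ccl6, differed by 0.62 ± 0.21 (adjusted p = 0.133) with libraries that did not overlap. Ccl6 and Ccl9 are made mainly by myeloid cells in the mouse, and 18 of 28 myeloid markers rose in the same libraries. The call of Ccl6 was lost without dLck-Cre replicate 2 (1.11, adjusted p = 0.0631). The part of myeloid cells in it was not tested.

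Xcl1 encodes lymphotactin, the C-class ligand of XCR1 that activated T cells and NK cells release (chromosome 1, 164931644 to 164935527, minus strand). It had 149 and 726 normalized counts in fl/fl and 190.2 and 235 in dLck-Cre. The value of fl/fl replicate 2 stood apart from the other 3 libraries, at 4.88 times that of fl/fl replicate 1. The log2 difference of -0.63 ± 0.62 did not pass (95% interval -2.09 to 0.82; limma, adjusted p = 0.5875), and its sign rested on that library: omitting it gave 0.51 (adjusted p = 0.441), while omitting fl/fl replicate 1 gave -1.77 (adjusted p = 0.00379), where the lone fl/fl library is assumed to vary like the others. Gm20743, a processed transcript on the opposite strand, shares 98 exon bases with Xcl1 and had at most 42.0 normalized counts.

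The fl/fl replicates also differed for Ccl3, by 2.71-fold, and for genes of other classes. Between the fl/fl replicates Xcl1 was 2.28 and Ccl3 1.43 higher in replicate 2 (log2), beside a median size of 0.22 over all genes. The genes whose pattern over the 4 libraries was most like that of Xcl1 were the heat shock genes Hspa1b, Hspa1a and Hsph1, at mean absolute log2 differences of 0.13, 0.14 and 0.20 after centring. Hspa1b had 10529 and 49419 normalized counts in fl/fl and 15943 and 14166 in dLck-Cre, and its near-identical copy Hspa1a may share its reads. For Ccl3 they were the granzyme gene Gzmb (0.086), the mitochondrial transfer RNA gene mt-Tv (0.14) and the chaperone gene Dnajb1 (0.15), and Gzmb had 1402 and 3229 normalized counts in fl/fl and 1429.99 and 1936 in dLck-Cre. Summed over 9 CD8 T and NK cell markers, fl/fl replicate 2 had 9545 normalized counts and the other libraries between 1948 and 3275, and most of that sum was the granzyme gene Gzma (8305 in fl/fl replicate 2). The part of these cells and of heat shock in the values of Ccl3 and Xcl1 was not tested.

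Ccl20 encodes the ligand of CCR6, made by epithelium and by Th17 cells (chromosome 1, 83116766 to 83119167, plus strand). It was the scarcest of the 10, with 37.4 and 64.1 normalized counts in fl/fl and 85.7 and 146 in dLck-Cre, from 36, 58, 82 and 178 reads. Both dLck-Cre libraries were above both fl/fl libraries, and the log2 difference was 1.17 ± 0.38 (95% interval 0.28 to 2.07), which did not pass over all genes (limma, adjusted p = 0.117). It passed after scaling to T cell identity genes (1.68, adjusted p = 0.0305) and when fl/fl replicate 2 was omitted (1.55, adjusted p = 0.0482, the lone fl/fl library being assumed to vary like the others), and was 0.79 without fl/fl replicate 1 or without dLck-Cre replicate 2. Per 1000 normalized counts of the 24 epithelial markers, Ccl20 stood at 0.663 and 1.00 in fl/fl and at 0.667 and 0.948 in dLck-Cre, so on that scale the dLck-Cre values lay within the range of the fl/fl values.

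**Figure D3:**
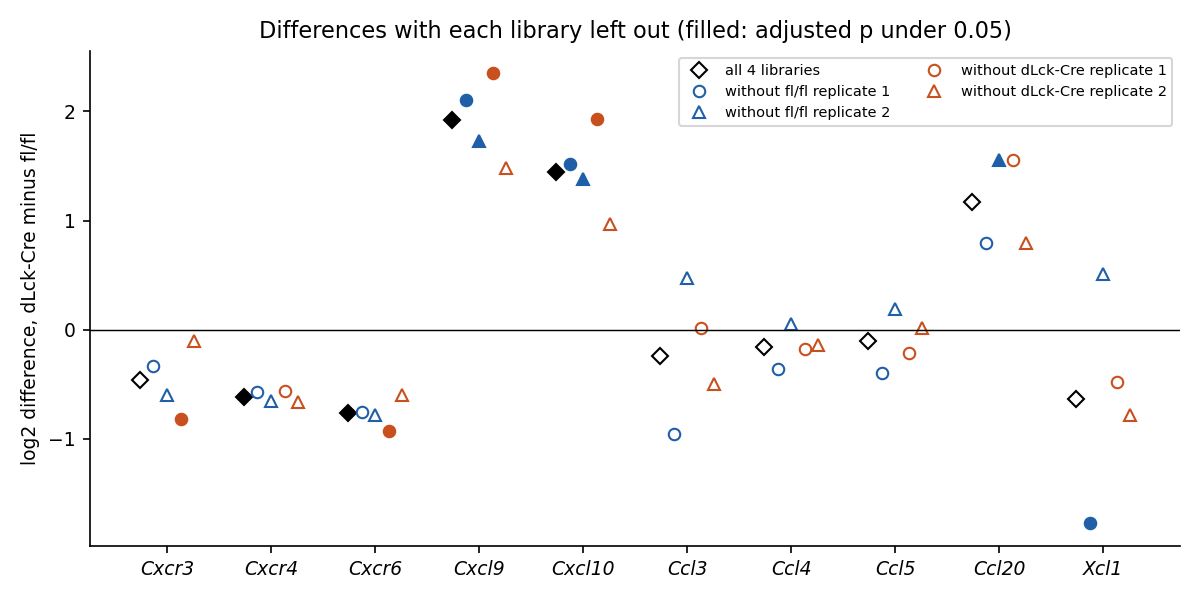
Log2 difference (dLck-Cre minus fl/fl) of each member with all 4 libraries (diamonds) and with 1 library left out (blue, an fl/fl library; orange, a dLck-Cre library; circles replicate 1, triangles replicate 2), filled where limma's adjusted p was under 0.05. Cxcl9 and Cxcl10 stay above 0 and Cxcr4 and Cxcr6 below 0 in every case, while Ccl3, Ccl4, Ccl5 and Xcl1 lie above 0 without fl/fl replicate 2.

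Levels of different genes were compared as normalized counts per kb of annotated exon (GENCODE vM21). In fl/fl the highest mean level per kb was that of Cxcr6 (7469), followed by Cxcr4 (5174), and neither overlapped any other member. Ccl5 (1473), Cxcr3 (1225), Ccl4 (1141) and Xcl1 (836) came next, and their libraries overlapped each other. Cxcl10 (415) and Ccl3 (373) overlapped each other and Xcl1, and Cxcl9 (128) and Ccl20 (35.7) were the lowest and separate from the rest. In dLck-Cre the order per kb was Cxcr6 (4419), Cxcr4 (3376), Ccl5 (1348), Cxcl10 (1195), Ccl4 (1013), Cxcr3 (912), Cxcl9 (501), Xcl1 (406), Ccl3 (284) and Ccl20 (81.4). Cxcl10 thus stood among Ccl5, Ccl4 and Cxcr3 there, with overlapping libraries, and Cxcl9 overlapped Xcl1. The receptor Cxcr6 remained the most abundant of the 10 per kb in every library.

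Among the genes most like a member in pattern, Cxcl9 had Upp1 (uridine phosphorylase), Scin (the actin-severing protein scinderin) and Pde8a (a phosphodiesterase), at mean absolute log2 differences of 0.049, 0.085 and 0.10 over the 4 libraries, out of 11081 genes searched. Cxcl10 had Bend4, Fer1l4 and Ptprh (0.045 to 0.052), and Ccl20 had the kinase gene Ripk4, Zan and Strip2 (0.034 to 0.052). For Cxcr6 they were Fam234b, Crmp1 and the adenylyl cyclase gene Adcy3 (0.014 to 0.028), and for Cxcr4 Mr1, the clock gene Per1 and Smco4 (0.020 to 0.024). Cxcr3 had Tube1, Cbx2 and Rab37 (0.012 to 0.030), Ccl4 had BC017643, Srsf11 and Ilkap (0.0056 to 0.015), and Ccl5 had Zfp1, Snord104 and Zfp53 (0.019 to 0.027). Among the members themselves, Ccl4 and Ccl5 were the closest pair (0.093), followed by Cxcr4 and Cxcr6 (0.14), and Cxcl9 and Cxcl10 were at 0.23. With 4 libraries many genes lie as close to a member by the size of their difference alone, and nothing further is read from these names.

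The receptors and ligands that pair with the members were a list of 11, of which 10 were tested. Of these 2 rose (Cxcl11 and Cxcl16) and none fell, at a median of 0.16. Over all genes 5.75% rose and 1.22% fell, at a median of -0.02. Cxcl16, which encodes the ligand of CXCR6, had 538 and 360.1 normalized counts in fl/fl and 1029 and 1028 in dLck-Cre, and rose by 1.22 ± 0.21 (log2, SE; limma, adjusted p = 0.0260). Omitting dLck-Cre replicate 2 left it at 1.22, which did not pass (adjusted p = 0.0724). The ligand gene was thus higher and its receptor gene Cxcr6 lower in the same libraries. The myeloid and epithelial markers had median differences of 1.12 and 1.28, and Cxcr6 differed by -0.25 after scaling to T cell identity genes. The part of the cell mix in this pair was not tested. Ccr6, the CCL20 receptor gene, had 202 and 104 against 105 and 54.0, a log2 difference of -0.94 ± 0.42 (limma, adjusted p = 0.227). For Ccr6 the difference was -0.46 when fl/fl replicate 1 was omitted, -0.47 when dLck-Cre replicate 2 was, and -1.41 on omission of either other library, and none of these passed. Ccr1 (0.18), Ccr3 (-0.42), the XCL1 receptor gene Xcr1 (-0.25), the CXCR4 ligand gene Cxcl12 (0.30), the scavenging receptor gene Ackr3 (-0.47) and Dpp4, whose peptidase trims several chemokines (0.13), did not pass either (adjusted p between 0.474 and 0.827).

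**Figure D4:**
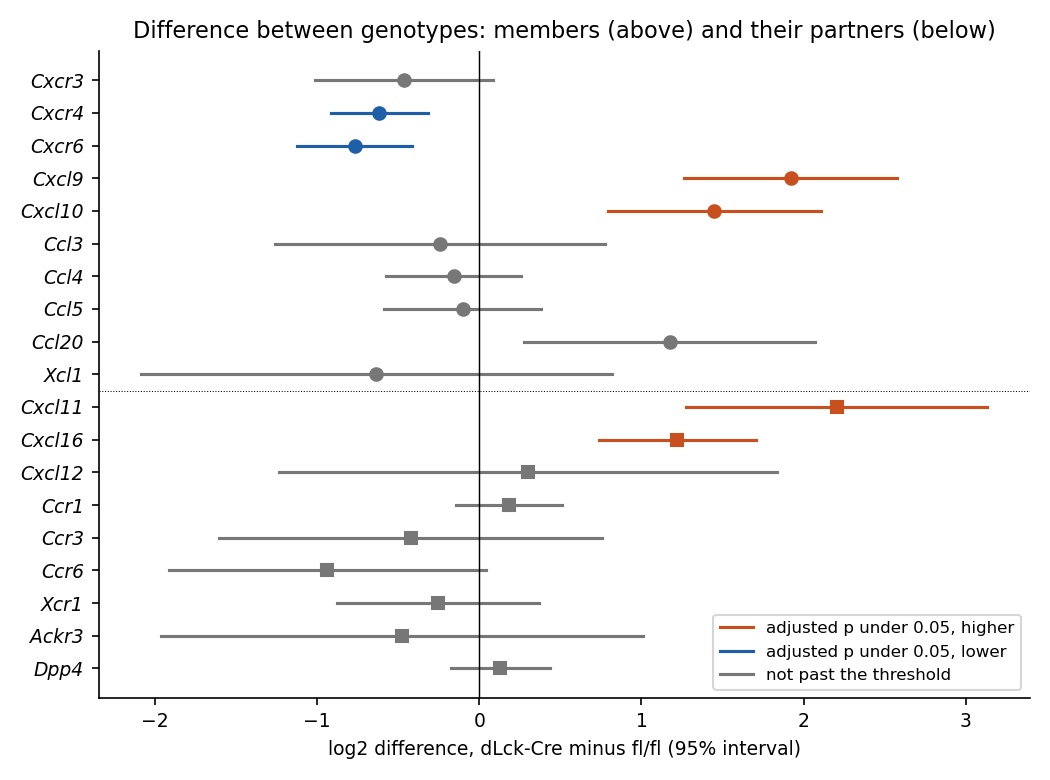
Log2 difference (dLck-Cre minus fl/fl) with its 95% interval for the 10 members (circles, above the dotted line) and 9 genes that pair with them (squares, below), coloured by limma's call over all genes. Cxcl9, Cxcl10, Cxcl11 and Cxcl16 lie to the right of 0 and Cxcr4 and Cxcr6 to the left with adjusted p under 0.05.

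Of 17 other CC ligands 12 were tested, 2 rose (Ccl28, an epithelial ligand gene, by 1.15, and Ccl6) and none fell, at a median of 1.12. Over all genes 5.75% rose and 1.22% fell, at a median of -0.02. The call of Ccl28 was lost without fl/fl replicate 1 or without either dLck-Cre library. Of 14 other CXC and CX3C ligands 10 were tested, 3 rose (Cxcl11, Cxcl16 and the neutrophil attractant gene Cxcl2, by 1.11) and 1 fell, at a median of 0.88. The one that fell was Cxcl3, a close relative of Cxcl2, with 455 and 459.6 normalized counts in fl/fl and 125 and 147 in dLck-Cre (log2 difference -1.75 ± 0.19 SE, limma, adjusted p = 0.0195), and its call held without each library in turn. Of the epithelial and myeloid markers 21 of 24 and 18 of 28 rose in the same libraries, and the part of those cells was not tested.

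Other receptor genes did not move in 1 direction. Beside the counts given here, 5.75% of all genes tested rose and 1.22% fell. Of 11 other CC receptors 10 were tested, 1 rose (Ccr7, by 0.84) and 2 fell (Ccr8 by 2.12 and Ccr4 by 2.09), at a median of 0.04. Of 9 other CXC, XC, CX3C and atypical receptors 6 were tested and 1 rose, Cxcr5, the receptor gene of follicular helper and B cells (1.36). Of 38 symbols listed for chemokine receptor signalling, among them an older name of Grk2, 36 were tested, and 3 fell and none rose. They were Rgs10, a regulator of G protein signalling (-1.03), the Rac exchange factor gene Prex1 (-0.68) and Rassf5, a Rap1 effector in adhesion (-0.61). Their adjusted p-values (limma) lay between 0.0316 and 0.0404, and none of the 3 passed after scaling to T cell identity genes. Of the 36, 33 lay below 0, beside 8621 of all 16490 genes tested. Their median of -0.35 became 0.17 after that scaling, beside a shift of the median of all genes from -0.02 to 0.49. When dLck-Cre replicate 2 was omitted, Ccr4 and Cxcl3 still passed, and Ccr7, Ccr8, Cxcr5, Cxcl2, Rgs10, Prex1 and Rassf5 did not. Ccr7 was also lost on omission of fl/fl replicate 2, and Prex1 and Rassf5 on omission of either fl/fl library.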

How the data were processed

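The authors deposited a signal, namely counts per gene scaled by a size factor for each library, as 1 table of 4 libraries, 2 per group, per the file headers and the values. Reads were placed on mm10, per the submitters' processing notes, and the aligner, counting tool, strand setting and annotation are not given in the sources used here. In every library 100% of values were whole multiples of 1 step (tolerance 1e-06), so whole reads were recovered.

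The filter kept genes whose mean reached 10. Tests ran on log2(value + 1), a scale that understates the change of low genes, with limma 3.58.1 (intensity trend, R 4.3.3) and Benjamini-Hochberg adjustment over all genes (threshold 0.05). The alternatives were 2 other pseudocounts and 2 other filters, TMM, quantile and T cell identity scaling, limma without trend or robust, edgeR 4.0.16 (1133 genes called) and DESeq2 1.42.0 (1768 genes called) on the recovered reads, the replicate number as a block, and omission of each library. The tests were tried on simulated counts. Positions and exon lengths came from GENCODE vM21 (GRCm38, the assembly of mm10), promoters from RefSeq. Members and lists were chosen with earlier results of these data known. Named genes were all members, genes that pair with them (1 is not reported here), up to 3 higher and 3 lower called genes per list, and the 3 nearest patterns per member (mean of at least 50). Irf1, Ifng, Gzma and genes chosen by position were named after their values were seen. Figures were drawn with matplotlib 3.10.9.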

Additional observations from a re-analysis of the deposited data

How the results depend on the processing

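Cxcl9 kept its call in 14 of 16 alternatives, Cxcl10 in 13, Cxcr6 in 10 and Cxcr4 in 9, and none of these 4 changed direction in any of them. Limma without the trend called 0 genes higher and 0 lower (3443 at an unadjusted p under 0.05, 5 of them members), and so 0 members in either direction. After quantile normalization 284 genes passed as higher and 57 as lower, and of the members 1 (Cxcl9) as higher and 0 as lower. After scaling to T cell identity genes 4606 passed as higher and 49 as lower, and 0 members as lower, and the median of all genes was then 0.49. That scaling turned the sign of Cxcr3 (0.051), Ccl3 (0.27), Ccl4 (0.36), Ccl5 (0.41), Ccr3 (0.077), Xcr1 (0.26) and Ackr3 (0.025), of the median of the members (0.31) and of the receptor signalling list (0.17). DESeq2 called 421 genes lower, beside 202 with limma. Cxcl12 was at -0.080 with edgeR and -0.087 with DESeq2, against 0.30 with limma.

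With 1 library left out, between 9 and 981 genes passed as higher and between 8 and 309 as lower, and between 0 and 3 members as higher and 0 and 2 as lower. The lowest counts of genes came without dLck-Cre replicate 2. The differences then ran from -0.96 to 0.47 for Ccl3, -0.36 to 0.048 for Ccl4, -0.40 to 0.19 for Ccl5, -1.77 to 0.51 for Xcl1, -1.06 to 0.22 for Ccr3, -0.53 to 0.026 for Xcr1, -1.46 to 0.51 for Ackr3, -0.81 to 1.41 for Cxcl12, -1.41 to -0.46 for Ccr6 and 0.21 to 1.94 for Lyz2 (which passed without fl/fl replicate 1, adjusted p = 0.00245), and the median of the members from -0.38 to 0.33. The cause of these shifts was not tested.

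The labels give both groups replicates 1 and 2 without saying that a number is shared, and deviations of same-numbered libraries correlated at 0.11 across genes. With the replicate block 1476 genes passed as higher and 620 as lower, and of the named genes refitted Ccl20 (adjusted p = 0.0367), Ccr6 (0.0482) and Lyz2 (0.0264) passed as well, while no other call among them changed. An exact permutation test of 2 against 2 libraries cannot go below p = 0.333, so single values rest on the spread shared across genes. Depth limits Ccl20 most, at 36 to 178 reads.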
